A study of Mus musculus with 4 samples.

Results

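The platelet-derived growth factor (PDGF) genes of the embryonic mouse heart were followed through single-cell RNA sequencing (scRNAseq) libraries of Tie2-cko and control hearts. The 5 genes were the ligands Pdgfa, Pdgfb and Pdgfc and the receptors Pdgfra and Pdgfrb, taken by symbol from the 32285 genes counted. They had been chosen on values measured in these same libraries, among them a higher Pdgfb level in chamber endocardial cells (EdCs) of Tie2-cko hearts. Their levels by cell type and their genotype differences in chamber EdCs are therefore given as a description with no test, and tests are given only for the other cell types.

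Hearts were collected at E10.5 with the whole cardiogenic region. The 2 control libraries, numbered 5 and 7, came from Tie2flfl embryos, which carry the floxed Tie2 alleles and no Cre. The 2 Tie2-cko libraries, numbered 6 and 8, carry the same alleles and Nfatc1-Cre, a knock-in. It recombines in the endocardium of the chambers and cushions and in lymphatic endothelium, but not in peripheral vessels. Mesenchymal cells that arise from the endocardium carry the recombination too. The study mapped this in another Nfatc1-Cre line that it describes as matching the knock-in. Controls thus lack the knock-in as well as the deletion, and residual TIE2 in single EdCs of the mutants is mosaic. The study's methods give litter mates matched for somite number, a mixed strain background and both sexes. They describe 2 hearts of each genotype from the same litter, while the labels name no litter. The p-values therefore measure only the spread between these 4 libraries.

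PDGF ligands are secreted dimers that bind receptor tyrosine kinases on neighbouring cells. PDGF-A and PDGF-C act mainly through PDGFRα, and PDGF-B through PDGFRβ as well as PDGFRα. In the developing heart PDGFRα marks the epicardium, the cushion mesenchyme and neural crest derivatives, and PDGFRβ marks mesenchyme and the mural cells that endothelial PDGF-B recruits to vessels. Pdgfb has also been placed among the genes that the transcription factor FOXO1 raises in endothelium, and the study examined FOXO1 downstream of the receptor TIE2, encoded by Tek.

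After filtering, 10097 and 8449 cells were kept in control libraries 5 and 7, and 5684 and 9189 cells in Tie2-cko libraries 6 and 8. The libraries held 169361996 to 259775540 unique molecular identifiers (UMIs, each standing for 1 captured transcript), and the median kept cell held 14878 to 25875, the highest in library 6. Foregut mesenchyme-like cells numbered 533 and 562 in libraries 5 and 6 against 2 and 3 in libraries 7 and 8, so 1 library of each genotype held tissue that the other lacked. Pairs of libraries shared 29 to 62 barcodes, 12 to 29 of them among kept cells. All cell types below were clusters named from their markers, and the 5 genes were kept out of the clustering. Chamber EdCs held all 7 endothelial and all 4 chamber endocardial markers above 0.1 in every library. Cushion EdCs and vascular endothelial-like cells did so too. The 4 chamber markers summed to 8.32 to 9.82 in chamber EdCs, 5.19 to 8.27 in vascular endothelial-like cells and 1.55 to 1.80 in cushion EdCs. The level of a gene in a cell type is the mean over cells of its UMIs per 10000 UMIs of the cell, and is given for libraries 5, 6, 7 and 8 in that order unless stated otherwise.

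The deletion was visible where Nfatc1-Cre acts. The level of Tek in chamber EdCs was 0.898 and 1.00 in the control libraries and 0.130 and 0.149 in the Tie2-cko libraries. Tek (chromosome 4, 94739289 to 94874976, forward strand, GRCm38) fell by 2.56 on the log2 scale (SE 0.19, edgeR adjusted p = 0.00914) in chamber EdCs and by 2.45 (SE 0.26, edgeR adjusted p = 0.00527) in cushion EdCs. Mesenchymal cells of the cushions, which in part arise from recombined endocardium, also held less Tek in Tie2-cko. The level there was 0.209 ± 0.0954 (SD, n = 2) in controls and 0.0354 ± 0.00530 (SD, n = 2) in Tie2-cko, although no gene passed the edgeR test in these cells. In vascular endothelial-like cells, which the knock-in should spare where they are not lymphatic, the Tek level was 0.626, 0.774, 0.790 and 0.687. The log2 fold change there was -0.15 ± 0.29 (SE, n = 2 libraries per genotype, edgeR adjusted p = 1.00).

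Pdgfa was a myocardial, epicardial and epithelial ligand in these hearts. Pdgfa, which encodes the PDGF-A chain, lies on chromosome 5 (138976014 to 138997370, reverse strand, GRCm38). Its level was highest in Sox2 and Pax9 epithelial-like cells, at 2.72, 1.76, 1.47 and 1.68, and every library there lay above every library of the cell type ranked next. That next type was the outflow tract cardiomyocytes (CMs), at 0.727, 0.812, 0.738 and 0.807, which did not overlap with the epicardial cells behind them. Epicardial cells, named from Upk1b, Upk3b, Wt1, Tbx18 and other mesothelial markers, held 0.587, 0.615, 0.576 and 0.527.

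Within the myocardium Pdgfa was graded. Atrial CMs held 0.434 to 0.487, sinus venosus and atrioventricular canal (AVC) CMs 0.318 to 0.419, and ventricular CMs 0.295 to 0.335. The outflow tract was thus above the other 3 groups of CMs in all 4 libraries, and the atria did not overlap with the sinus venosus and AVC group, while that group and the ventricle overlapped. Because CMs were numerous, with 1402 to 4468 cells per library, they carried 64.7%, 66.7%, 76.3% and 71.6% of the Pdgfa UMIs of named cells. Epicardial cells carried 7.01% to 10.9% of them.

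Endothelial and mesenchymal cells of the heart held little Pdgfa. The level was 0.0359 to 0.0729 in mesenchymal cells (MCs) of the cushions, 0.0173 to 0.0372 in cushion EdCs and 0.0346 to 0.227 in vascular endothelial-like cells.

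**Figure D1:**
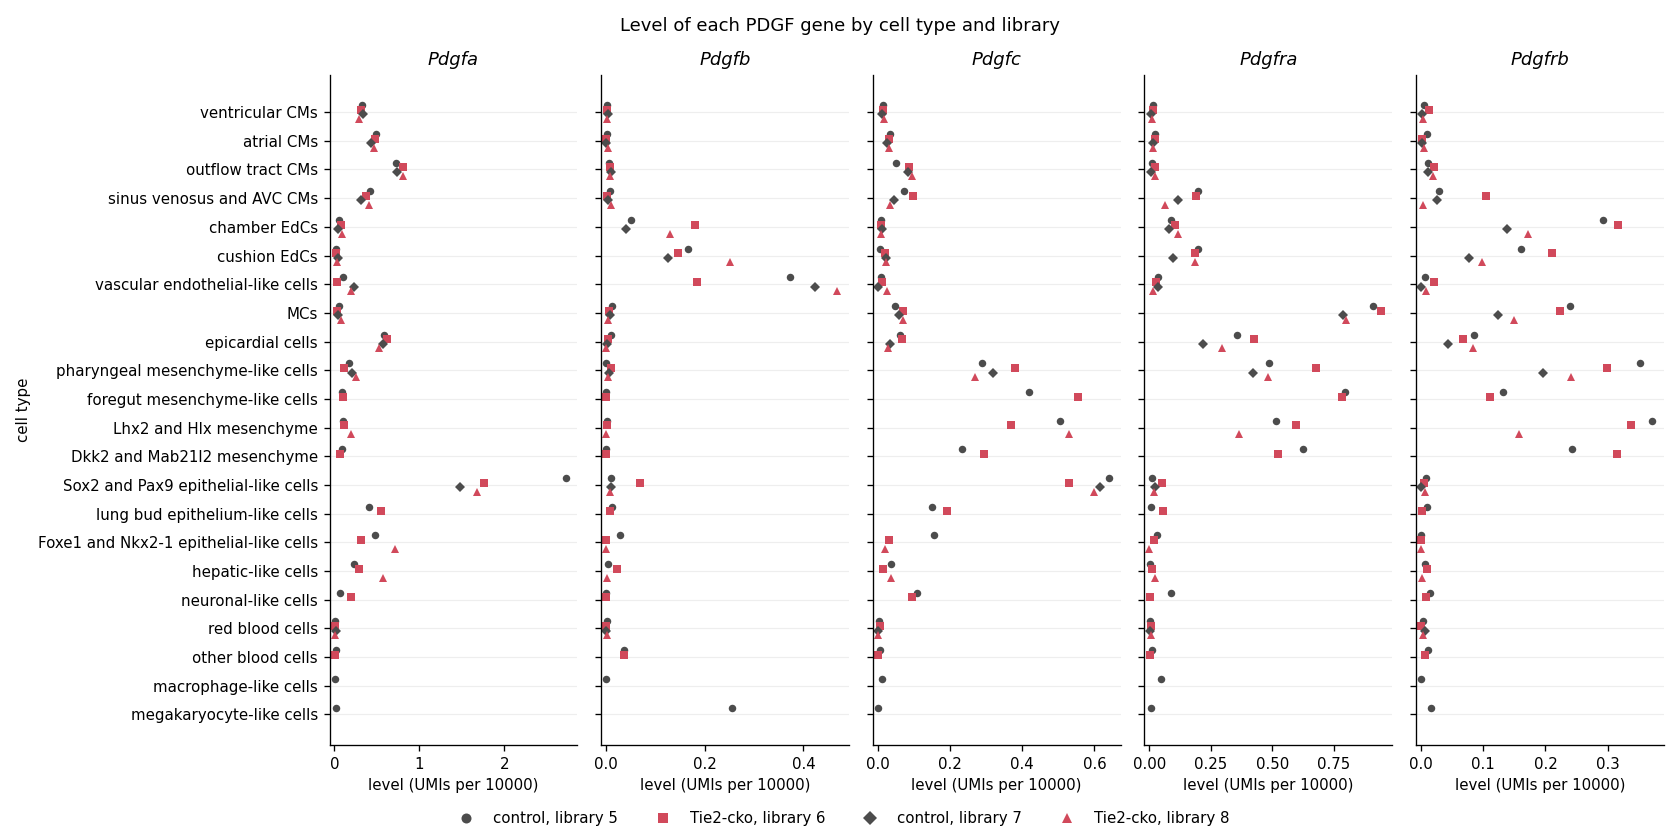
Level of the 5 PDGF genes (mean UMIs per 10000 UMIs of the cell, linear axis with its own range in each panel) in each named cell type with at least 20 cells in a library. Each point is 1 library (grey for control, red for Tie2-cko), and each panel is 1 gene. Pdgfa was highest in Sox2 and Pax9 epithelial-like cells (1.47 to 2.72), Pdgfb in vascular endothelial-like cells (0.185 to 0.469), and Pdgfra in MCs (0.790 to 0.941).

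Pdgfb was an endothelial ligand in all 4 libraries. Pdgfb, which encodes the PDGF-B chain, lies on chromosome 15 (79995874 to 80014977, reverse strand, GRCm38). Its level was 0.374, 0.185, 0.423 and 0.469 in vascular endothelial-like cells. In cushion EdCs the level was 0.166, 0.145, 0.125 and 0.252. In chamber EdCs it was 0.0498, 0.179, 0.0406 and 0.129. Vascular and cushion cells overlapped, as did cushion and chamber cells. Among types with at least 20 cells in 2 or more libraries, the next was a mixed group of blood cells. It held 0.0359 and 0.0363, below all 4 libraries of chamber EdCs. Sox2 and Pax9 epithelial-like cells, ranked after it, reached 0.0690 in library 6 on 30 cells, above both control libraries of chamber EdCs. They held 0.00760 to 0.00921 in the other libraries. A few blood cells were a further source, since 31 megakaryocyte-like cells of library 5 held a level of 0.254 and the other libraries had fewer than 20 such cells.

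Outside endothelium and blood Pdgfb was near the floor of detection. The level was 0.00228 to 0.00406 in CMs, 0.00436 to 0.0114 in MCs and 0.000465 to 0.0103 in epicardial cells. The cell types carried unequal shares of the Pdgfb UMIs of named cells. Chamber EdCs held 11.2%, 27.2%, 16.2% and 20.2%, cushion EdCs 25.9%, 17.5%, 38.9% and 42.5%, and vascular endothelial-like cells 23.8%, 17.2%, 16.7% and 20.2%. CMs, low per cell but numerous, held 6.39% to 16.7%.

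Pdgfc was an epithelial and extracardiac mesenchymal ligand. Pdgfc, whose product is secreted in a latent form and cleaved before it binds PDGFRα, lies on chromosome 3 (81036416 to 81214040, forward strand, GRCm38). The level was 0.640, 0.531, 0.616 and 0.598 in Sox2 and Pax9 epithelial-like cells. Foregut mesenchyme-like cells held 0.419 and 0.553 in libraries 5 and 6, the only libraries with at least 20 of them, and Lhx2 and Hlx mesenchyme held 0.370 to 0.529 in its 3 libraries of at least 20 cells. Pharyngeal mesenchyme-like cells followed at 0.290, 0.379, 0.319 and 0.269. Each of these types overlapped with the next, whereas the epithelium and the pharyngeal cells did not overlap. In the heart itself the level was 0.0519 to 0.0943 in outflow tract CMs and 0.0332 to 0.0979 in sinus venosus and AVC CMs. It was 0.0478 to 0.0709 in MCs, 0.0298 to 0.0668 in epicardial cells and at most 0.0231 in chamber and cushion EdCs. Extracardiac mesenchyme carried 50.4% and 68.6% of the Pdgfc UMIs of libraries 5 and 6 but 19.9% and 24.3% of those of libraries 7 and 8, where CMs carried 34.8% and 33.9%.

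**Figure D2:**
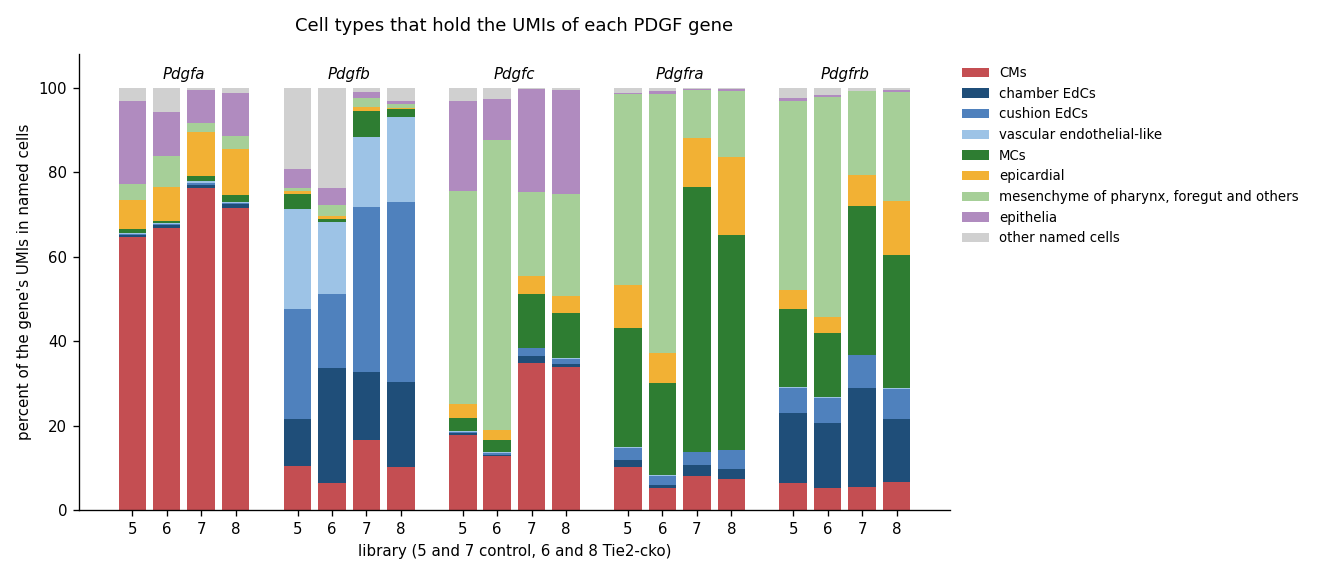
Share of each gene's UMIs (percent of the UMIs of named cells, linear axis from 0) that came from each group of cells, as stacked bars with 1 bar per library for each gene. CMs carried 64.7% to 76.3% of Pdgfa UMIs, whereas chamber, cushion and vascular endothelial cells together carried most of the Pdgfb UMIs.

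Pdgfra was a receptor of mesenchyme and epicardium, and several of its cell types also held a ligand. Pdgfra (chromosome 5, 75152292 to 75198215, forward strand, GRCm38) was highest in MCs, at 0.908, 0.941, 0.790 and 0.799. Foregut mesenchyme-like cells were next at 0.794 and 0.785, followed by Dkk2 and Mab21l2 mesenchyme at 0.624 and 0.525 and pharyngeal mesenchyme-like cells at 0.486, 0.677, 0.420 and 0.481. MCs and foregut mesenchyme overlapped, and both lay above the pharyngeal cells in every library. Lhx2 and Hlx mesenchyme held 0.366 to 0.599 in its 3 libraries of at least 20 cells. Epicardial cells held 0.358, 0.426, 0.220 and 0.297. MCs carried 28.2%, 21.7%, 62.6% and 50.7% of the Pdgfra UMIs of named cells, the lower shares being those of the libraries with foregut tissue.

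Pdgfra reached the lower levels of the endocardium and one part of the myocardium as well. Cushion EdCs held 0.200, 0.186, 0.0970 and 0.188, and chamber EdCs 0.0893, 0.103, 0.0800 and 0.117. Among CMs the sinus venosus and AVC group held 0.199, 0.189, 0.118 and 0.0648, each above the outflow tract, atrial and ventricular groups, where the highest library was 0.0246. Vascular endothelial-like cells held 0.0137 to 0.0348.

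Shares of positive cells gave the same order. Cells were thinned to 5500 UMIs each, and shallower cells were left out, so that cells of unequal depth could be compared. At that depth 33.5%, 35.3%, 31.1% and 28.9% of MCs held a Pdgfra UMI, against 16.4%, 20.9%, 10.6% and 14.8% of epicardial cells. Red blood cells, which should lack the receptor, gave 0% to 0.585%, at a median of 22811.5 to 60281 UMIs per cell before thinning against 11427 to 28978.5 in MCs. Before thinning, 49.0% to 75.7% of MCs and 0.610% to 2.78% of red blood cells held one.

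Pdgfrb, a gene of chromosome 18, was spread over mesenchyme and endocardium. Its mean level was highest in Lhx2 and Hlx mesenchyme, at 0.158 to 0.371 in its 3 libraries of at least 20 cells. Dkk2 and Mab21l2 mesenchyme followed at 0.243 and 0.315 in libraries 5 and 6. Pharyngeal mesenchyme-like cells came next at 0.352, 0.299, 0.195 and 0.242. Chamber EdCs held 0.292, 0.316, 0.139 and 0.172, MCs 0.239, 0.223, 0.124 and 0.150, and cushion EdCs 0.161, 0.211, 0.0767 and 0.0983. All neighbours in this order overlapped. Epicardial cells were lower, at 0.0441 to 0.0855, and CMs held 0.00641 to 0.0249. Chamber EdCs carried 14.8% to 23.6% of the Pdgfrb UMIs of named cells and MCs 15.0% to 35.2%.

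Endocardium and vessels lay apart in Pdgfrb although both were endothelial by their markers. The level in vascular endothelial-like cells was 0 to 0.0210, below every library of chamber EdCs. At 5500 UMIs per cell 37 of 354, 14 of 126, 44 of 553 and 38 of 433 chamber EdCs held a Pdgfrb UMI (33.5%, 51.8%, 16.6% and 18.2% before thinning). In vascular endothelial-like cells the shares before thinning were 3.23%, 4.23%, 0% and 2.22%, on 3, 3, 0 and 2 UMIs. At 5500 UMIs the count there was 0 of 87, 0 of 61, 0 of 47 and 0 of 87 cells, which allows shares of cells with a UMI of up to 3.45%, 4.92%, 6.38% and 3.45%. Median depth before thinning was 11280 to 25924 UMIs in these cells and 10984 to 27558 in chamber EdCs. These limits and all intervals given for shares cover counting error only.

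In pharyngeal mesenchyme, chamber EdCs, cushion EdCs and MCs alike, libraries 5 and 6 lay above libraries 7 and 8 for Pdgfrb, so that each genotype had 1 high and 1 low library. The same 2 libraries held the foregut tissue, and their median kept cell was deeper, at 17433 and 25875 UMIs against 14878 and 16961. The part of either in this split was not tested.

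**Figure D3:**
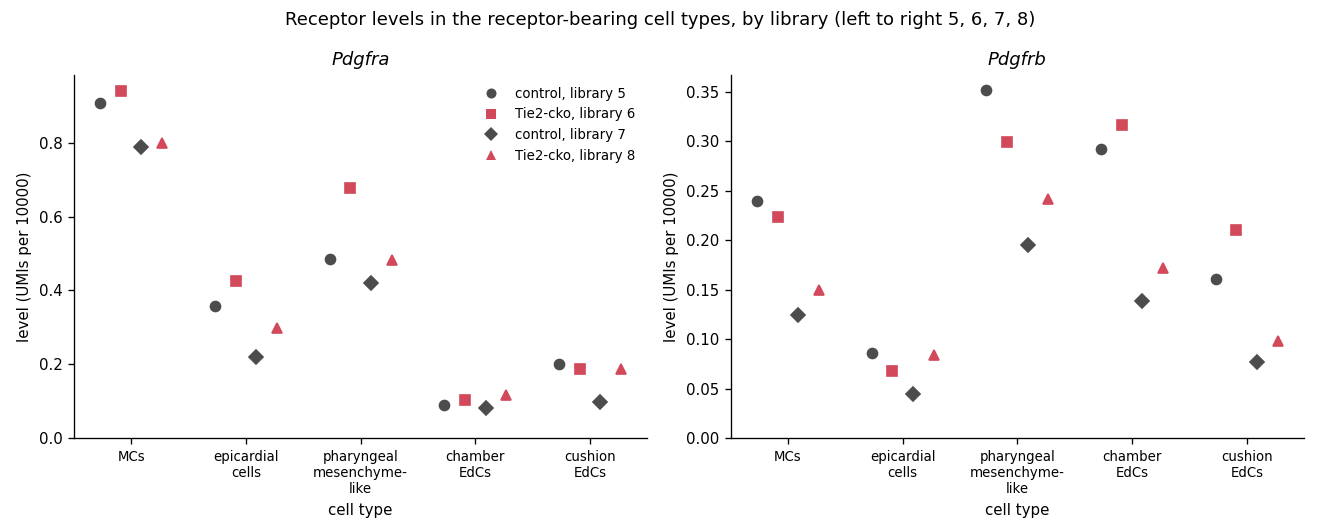
Levels of Pdgfra and Pdgfrb (mean UMIs per 10000 UMIs of the cell, linear axis) in endocardial, mesenchymal and epicardial cells, with 1 point per library coloured by genotype. Pdgfrb in chamber EdCs was 0.292 and 0.316 in libraries 5 and 6 and 0.139 and 0.172 in libraries 7 and 8, a split that crosses genotype.

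Both receptors were seen in the same MC about as often as their separate shares would give. In thinned MCs, 28 of 650, 9 of 269, 31 of 1169 and 24 of 1041 cells held both, or 4.31%, 3.35%, 2.65% and 2.31%. The products of the separate shares were 4.02%, 4.33%, 2.29% and 2.31%. Pdgfa and Pdgfra met in epicardial cells, where 5.47%, 7.43%, 3.23% and 4.35% of thinned cells held both, against products of 4.27%, 6.51%, 3.07% and 3.77%. In chamber EdCs 1, 1, 0 and 1 thinned cells held both Pdgfb and Pdgfrb, or 0.282%, 0.794%, 0% and 0.231%, against products of 0.266%, 0.970%, 0.173% and 0.466%.

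In chamber EdCs the Pdgfb level of each Tie2-cko library exceeded that of each control. The mean level was 0.0452 ± 0.00654 (SD, n = 2) in controls and 0.154 ± 0.0357 (SD, n = 2) in Tie2-cko, a ratio of 3.41. The counts behind these levels were 32 and 32 UMIs in 373 and 596 control cells and 98 and 85 UMIs in 137 and 467 Tie2-cko cells. On counts summed per library the log2 fold change was 1.89 ± 0.25 (SE). No p is given, since this difference led to the choice of the gene.

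The difference was carried by many cells. A Pdgfb UMI was found in 28 and 28 control cells and in 54 and 68 Tie2-cko cells, and no cell held more than 5. Cells with more than 1 UMI numbered 3 and 3 in controls and 24 and 12 in Tie2-cko. At 5500 UMIs per cell the positive share was 2.54% (95% Wilson interval 1.34% to 4.76%) in control library 5 and 2.17% (1.25% to 3.75%) in control library 7. It was 8.73% (4.94% to 15.0%) in Tie2-cko library 6 and 5.31% (3.57% to 7.84%) in Tie2-cko library 8. These shares stood on 9 of 354 and 12 of 553 control cells and on 11 of 126 and 23 of 433 Tie2-cko cells. The interval of Tie2-cko library 8 overlapped that of control library 5 and, over a narrow range, that of control library 7. The intervals cover counting error of cells within 1 library, so neither an overlap nor its absence is a test of genotype.

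Depth differed between these cells. Median UMIs per chamber EdC were 14836 and 12511 in the controls and 27558 and 10984 in Tie2-cko, so the deepest library and the shallowest were both mutant. Before thinning the shares were 7.51%, 39.4%, 4.70% and 14.6%. CMs, which should lack Pdgfb, gave 0.0656% to 0.227% at 5500 UMIs per cell and 0.895% to 1.28% before thinning, at medians of 20971 to 46982 UMIs.

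**Figure D4:**
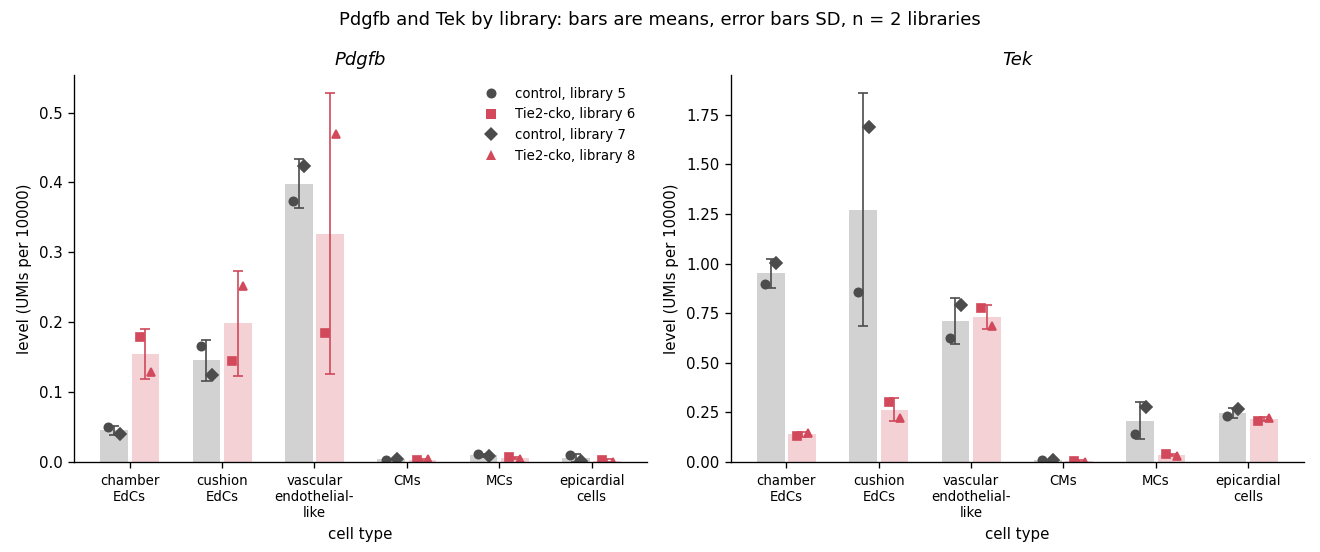
Levels of Pdgfb and Tek (mean UMIs per 10000 UMIs of the cell, linear axis) in chamber EdCs, cushion EdCs, vascular endothelial-like cells, CMs, MCs and epicardial cells. Points are libraries, bars are genotype means (grey for control, red for Tie2-cko) and error bars are SD (n = 2). In chamber EdCs the Pdgfb level was 0.0498 and 0.0406 in controls and 0.179 and 0.129 in Tie2-cko, and the Tek level was 0.898 and 1.00 against 0.130 and 0.149.

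Pdgfb was set against the other endothelial cells of the same libraries. In cushion EdCs, where Tek also fell, the mean level was 0.146 ± 0.0295 (SD, n = 2) in controls and 0.199 ± 0.0755 (SD, n = 2) in Tie2-cko, and the genotypes overlapped because library 6 lay between the controls. The log2 fold change there was 0.59 ± 0.29 (SE, edgeR adjusted p = 0.999), ranging from -0.0248 without library 8 to 0.97 without library 6. In vascular endothelial-like cells the mean was 0.399 ± 0.0351 (SD, n = 2) in controls and 0.327 ± 0.201 (SD, n = 2) in Tie2-cko. The log2 fold change was -0.13 ± 0.48 (SE, edgeR adjusted p = 1.00). The difference between the effects in chamber and in cushion EdCs was not tested. Single cells weighed on the cushion values, since 1 cell of library 8 held 19 Pdgfb UMIs and 1 of library 6 held 12, and the levels without the top cell were 0.153, 0.135, 0.122 and 0.239.

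Because vascular cells held more Pdgfb, their markers were read in the chamber cluster. The 7 vascular markers summed to 1.00, 1.24, 0.597 and 0.910 in chamber EdCs against 6.46 or more in vascular endothelial-like cells, and the Tie2-cko and control libraries overlapped. Of the 7 markers, Clec1b was higher in both Tie2-cko libraries, at 0.489 and 0.226 against 0.216 and 0.104, and so was Sox17, at 0.222 and 0.304 against 0.124 and 0.0923. Cldn5 was lower in both, at 0.0460 and 0.0727 against 0.121 and 0.102, and so was Aplnr, at 0.0112 and 0.0180 against 0.0221 and 0.0231. Lyve1 and Flt4 overlapped between genotypes, and Stab2 was at 0 in 3 of the 4 libraries. In chamber EdCs with no UMI of any of these markers (140, 36, 320 and 228 cells) the Pdgfb level was 0.0449, 0.118, 0.0440 and 0.0882, a ratio of 2.32. This choice of cells was made without thinning and so depends on depth, with 36 of 137 cells left in library 6, the deepest. It also removed cells by Sox17, Lyve1 and Flt4, which chamber EdCs held themselves. The part of vascular cells in the Pdgfb difference was not tested.

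Blood markers were lower in both Tie2-cko libraries. The 7 megakaryocyte and platelet markers summed to 0.141 and 0.174 in control chamber EdCs and 0.0798 and 0.0949 in Tie2-cko, with 2 or 3 of the 7 at 0 in each library. The 6 red blood cell markers, none of them at 0, summed to 86.7 and 36.3 in controls and 14.3 and 13.5 in Tie2-cko. Their sum was lower in both Tie2-cko libraries of cushion EdCs, vascular endothelial-like cells, MCs and epicardial cells as well. In MCs it was 66.4 and 31.9 in controls and 11.9 and 10.8 in Tie2-cko. The part of red blood cell RNA in the Pdgfb difference was not tested.

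The other PDGF genes differed less in chamber EdCs. Pdgfa, which was scarce there, was also higher in both Tie2-cko libraries, at 0.0788 and 0.0851 against 0.0558 and 0.0372, with a log2 fold change of 0.94 ± 0.25 (SE). Pdgfra and Pdgfrb had log2 fold changes of 0.13 ± 0.35 and 0.23 ± 0.39 (SE), and Pdgfc was too low to be fitted. As background for these descriptions, both Tie2-cko libraries lay above both controls for 2213 of the 11496 genes tested in chamber EdCs, or 19.3%. They lay below both controls for 2044. By contrast 1 gene, or 0.0087%, passed the edgeR test at an adjusted p of 0.05. That gene was Tek.

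Outside chamber EdCs no PDGF gene passed the test. In cushion EdCs, vascular endothelial-like cells, CMs, MCs and epicardial cells, 0 of 21 tests passed by edgeR, 0 had an unadjusted p under 0.05 and DESeq2 called 0. With pharyngeal mesenchyme-like cells, Sox2 and Pax9 epithelial-like cells and red blood cells included the count was 0 of 29 by both tools, with 0 unadjusted. The lowest p was that of Pdgfb in cushion EdCs (edgeR unadjusted p = 0.0662).

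Few genes of any kind passed in these types, so the members' count of 0 does not set them apart. The share of all tested genes that passed by edgeR was 0.0704% in cushion EdCs, 0.0335% in epicardial cells and 0.0541% in Sox2 and Pax9 epithelial-like cells. It was 0% in vascular endothelial-like cells, CMs, MCs, pharyngeal mesenchyme-like cells and red blood cells, where 45 to 288 genes per type had an unadjusted p under 0.05 and DESeq2 called 0 to 9. Apart from Tek, the genes that passed were hemoglobin genes and, in cushion EdCs, the metallothionein gene Mt1, all lower in Tie2-cko.

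The main sources of Pdgfa and the main Pdgfra-bearing cells of the heart had log2 fold changes of at most 0.15, with SEs of at most 0.19. Pdgfa in CMs had a log2 fold change of 0.04 ± 0.10 (SE) and in epicardial cells of 0.00 ± 0.13. In outflow tract CMs the Pdgfa level was 0.733 ± 0.00746 (SD, n = 2) in controls and 0.810 ± 0.00319 in Tie2-cko, and this group was not fitted apart from the other CMs. An exact permutation of 2 against 2 libraries cannot go below a two-sided p of 0.333. Pdgfra in MCs had a log2 fold change of 0.05 ± 0.12 (SE) and in epicardial cells of 0.15 ± 0.19. The epicardial value ran from -0.10 to 0.46 when 1 library was left out.

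Standard errors ranged from 0.18 to 0.56 in the other fits given here. Pdgfrb in MCs had a log2 fold change of 0.04 ± 0.29 (SE), and Pdgfrb in epicardial cells of 0.25 ± 0.28. Pdgfb in MCs had a log2 fold change of -1.15 ± 0.56 (SE, edgeR adjusted p = 1.00) on 10 and 12 UMIs in controls and 2 and 8 in Tie2-cko. Pdgfa in Sox2 and Pax9 epithelial-like cells had a log2 fold change of -0.35 ± 0.30 (SE), and Pdgfc there of -0.14 ± 0.18. In pharyngeal mesenchyme-like cells the values were 0.31 ± 0.30 for Pdgfa, -0.04 ± 0.21 for Pdgfc, 0.05 ± 0.19 for Pdgfra and -0.10 ± 0.30 for Pdgfrb.

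**Figure D5:**
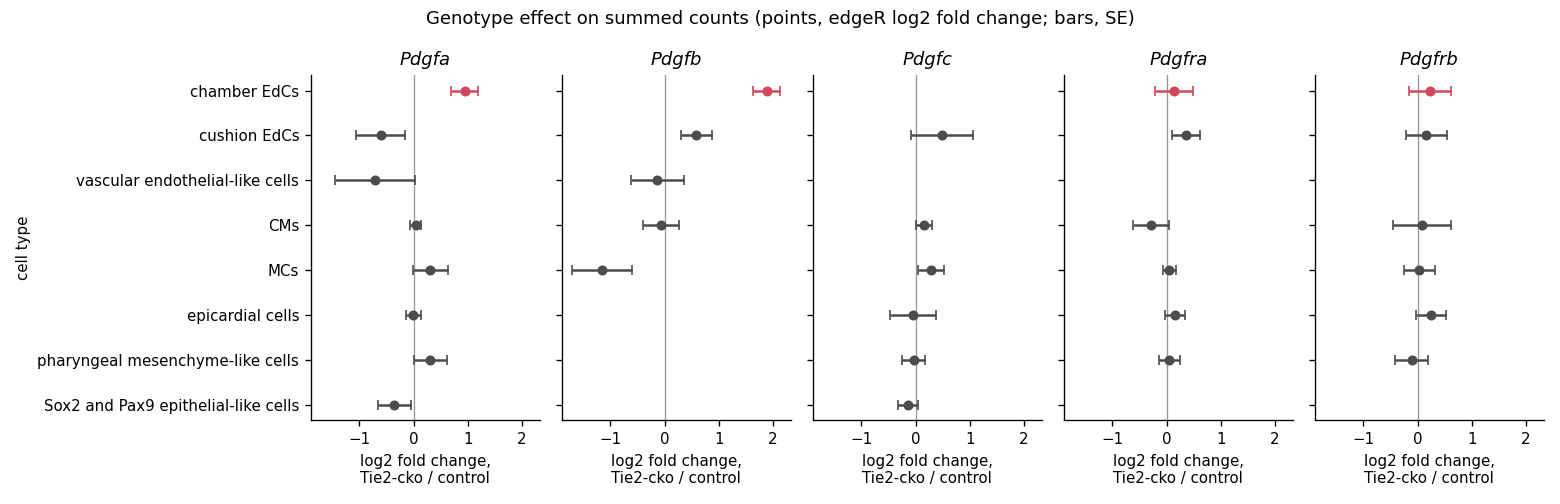
Log2 fold change of Tie2-cko over control (edgeR, summed counts, n = 2 libraries per genotype) for each PDGF gene that could be fitted, by cell type, with error bars of 1 SE. Chamber EdCs, drawn in red, carry no test. Pdgfb in chamber EdCs stood at 1.89 and Pdgfa there at 0.94, both as descriptions, and no value in another cell type passed the test.

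The wider PDGF pathway was read from 33 other genes that act outside the cell, at the receptors or as brakes on them. In chamber EdCs 31 of the 33 could be tested, 0 passed by edgeR or DESeq2, and 3 had an unadjusted p under 0.05, as had 782 of all 11496 genes tested there. The pathway genes' median log2 fold change was 0.11, with 20 of 31 above 0, against 0.00616 over all genes tested. In the 8 other types 0 of 235 tests passed by edgeR or DESeq2, and 2 had an unadjusted p under 0.05. Over all genes, those with an unadjusted p under 0.05 ran from 45 of 10429 in red blood cells to 288 of 11603 in pharyngeal mesenchyme-like cells.

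By role, the 10 genes of extracellular partners and processing (among them Pdgfd, Furin, Plat and Sparc) had 8 tested in chamber EdCs with a median log2 fold change of 0.24, and the 15 adaptors and effectors (among them Grb2, Shc1, Ptpn11, Pik3r1 and Plcg1) had a median of 0.02. The 8 negative regulators had a median of 0.05 and held the largest values. Spry4, an inhibitor of receptor tyrosine kinase signalling, had 26 and 30 UMIs in control chamber EdCs and 52 and 53 in Tie2-cko. Its log2 fold change was 1.28 ± 0.26 (SE, edgeR adjusted p = 0.271). Socs3, a feedback inhibitor of cytokine receptors, had 37 and 74 UMIs in controls and 74 and 119 in Tie2-cko, with a log2 fold change of 1.18 ± 0.28 (SE, edgeR adjusted p = 0.373). Plat, the tissue plasminogen activator that can cleave latent PDGF-C, had 0.37 ± 0.16 (SE, edgeR adjusted p = 0.724). Spry4 and Socs3 passed the test when no filter on low counts was set (edgeR adjusted p = 0.00448 and 0.000268), a setting in which 163 of 18247 genes passed in chamber EdCs.

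Each gene was last placed by the genes with the most similar pattern over cell types, as Pearson's r of log2 levels over 69 points, each 1 cell type in 1 library, from 22 cell types and 11632 genes. These points share libraries and clusters, and r is a description. Pdgfb was closest to the endothelial genes Myct1 (r = 0.952), Sox17 (0.902) and Vwf (0.901). Pdgfa was closest to Bcam (0.857), Tceal5 (0.832) and Lama5 (0.820), of which Bcam encodes a laminin receptor and Lama5 a laminin chain of epithelial basement membranes. Pdgfc was closest to Hoxa2 (0.862), Gm15050 (0.857) and Sfrp2 (0.854).

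The receptors were closest to mesenchymal genes. Pdgfra was closest to Tmem45a (r = 0.899), Twist1 (0.882) and Snai1 (0.875), the last 2 being transcription factors of mesenchyme formation. Pdgfrb was closest to the fibrillar collagen gene Col3a1 (0.929), Twist1 (0.858) and Dnm3os (0.857). Sox17, Twist1 and Snai1 were also among the markers used to name clusters.

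The 3 genes nearest to Pdgfb did not move together in chamber EdCs. Myct1 was higher in both Tie2-cko libraries, at 0.423 and 0.564 against 0.249 and 0.209. Sox17, a transcription factor of arterial endothelium, was higher in both as given above. Vwf, the von Willebrand factor gene, was lower in both, at 0.344 and 0.209 against 0.587 and 0.417.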

How the data were processed

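Droplet (10x) scRNAseq of 4 E10.5 heart libraries was analysed. The authors deposited raw UMI counts per gene and cell barcode (Cell Ranger, mm10 per the labels, with version 6.1.2 in the file headers). Barcodes were kept if they held 500 genes and 1000 UMIs or more, with mitochondrial UMIs of 10% or less, and the highest doublet scores (Scrublet, 0.8% per 1000 cells) were removed. Clusters (Seurat 5.3.0, 2000 variable genes, 30 components, resolution 0.8) were named from marker lists, and 3 clusters of low UMI number stayed unnamed. Pseudobulk counts (1 sum for each cell type of a library) were tested with edgeR 4.0.16 (quasi-likelihood, genotype only, filterByExpr, TMM), with Benjamini-Hochberg adjustment over all genes tested in a type and a threshold of 0.05. DESeq2 1.42.0 was an alternative. Scripts were tested on simulated data.

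The members and lists were chosen with earlier results of these data known. Genes named are the 5 members, 33 pathway genes, Tek, the 3 genes most like each member, markers, and for Mt1 and the hemoglobin genes the genes that passed the test. Gene positions are GENCODE M21. Antisense genes overlap 4 members and held few UMIs (913 against 24081 for Pdgfa, 1 against 1280 for Pdgfb, 4 against 5668 for Pdgfc and 11 against 11768 for Pdgfra).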

Additional observations from a re-analysis of the deposited data

Results flagged for a closer look

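Pdgfb had log2 fold changes of opposite sign in 2 cell types, with no overlap between genotypes in either. In chamber EdCs the log2 fold change was 1.89 ± 0.25 (SE), on 32 and 32 control UMIs and 98 and 85 Tie2-cko UMIs, and carries no test because it led to the choice of the gene. In MCs it was -1.15 ± 0.56 (SE, edgeR unadjusted p = 0.0764, adjusted p = 1.00), on 10 and 12 control UMIs and 2 and 8 Tie2-cko UMIs, and did not pass. Both Tie2-cko libraries lay below both controls for 1505 of the 12600 genes tested in MCs, and above both for 2213 of the 11496 tested in chamber EdCs. The difference between the 2 cell types was not tested.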

How the results depend on the processing

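The log2 fold change of Pdgfb in chamber EdCs, whose sign the choice of the gene fixes, was 1.70 to 2.06 when 1 library was left out and 1.79 with a low-UMI endocardial cluster counted in. This last setting and the next were chosen after seeing the data. The ratio of Pdgfb levels moved from 3.41 to 2.32 in cells with no vascular-marker UMI, and the log2 fold change of Pdgfa in chamber EdCs moved from 0.94 to 0.66 with the low-UMI cluster. The PDGF genes passed 0 tests outside chamber EdCs in all settings run, including each library left out.

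The 33 pathway genes passed 0 tests in the main setting, 2 with no filter on low counts and 3 with libraries 5 and 6 blocked against 7 and 8, and 0 to 1 when 1 library was left out. The 2 were Socs3 and Spry4 in chamber EdCs, and the block added Plat in pharyngeal mesenchyme-like cells. Over all genes 163 of 18247 passed in chamber EdCs with no filter, and with the block 855 of 11496 passed there and 71 of 11603 in pharyngeal cells. The cause was not tested. No paired analysis was possible because the labels give the libraries no shared replicate numbers, and the block of libraries is not a pairing from the labels.

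Some values changed sign. At resolution 1.2 Pdgfra in cushion EdCs was -0.0219, Pdgfa in epicardial cells 0.00399 and Pdgfrb in pharyngeal cells 0.0108. At resolution 0.4 Pdgfrb in MCs was -0.10. With doublets kept Pdgfa in epicardial cells was 0.0214, and with the block Pdgfrb in pharyngeal cells was 0.0211. Leaving out 1 library gave ranges that crossed 0 for Pdgfra (-0.44 to 0.53) and Pdgfrb (-0.26 to 0.90) in chamber EdCs, for Pdgfb (-0.0248 to 0.97), Pdgfra (-0.0363 to 0.85) and Pdgfrb (-0.36 to 0.89) in cushion EdCs, and for Pdgfa (-1.98 to 0.15) and Pdgfb (-0.94 to 0.47) in vascular endothelial-like cells. The same held for Pdgfrb in MCs (-0.36 to 0.54), Pdgfa (-0.0746 to 0.0725) and Pdgfra (-0.10 to 0.46) in epicardial cells, and Pdgfa in Sox2 and Pax9 epithelial-like cells (-0.76 to 0.22). In pharyngeal cells it held for Pdgfa (-0.20 to 0.63), Pdgfc (-0.16 to 0.12), Pdgfra (-0.0708 to 0.18) and Pdgfrb (-0.45 to 0.41). None of these passed the test.

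The number of genes passing per cell type depended on the setting, from 1 to 855 in chamber EdCs (main setting 1) and from 0 to 94 in cushion EdCs (main setting 8). At resolution 0.4 vascular endothelial-like cells formed no cluster of their own. With 2 libraries per genotype, changes of the size of these standard errors are not detectable.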
